A study of Mus musculus with 4 samples.

Results

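The melanocortin system is a small family of peptide hormones, receptors and antagonists that sets pigment in the skin, steroid output of the adrenal cortex and feeding in the brain. Pomc encodes the precursor from which α-MSH and ACTH are cut, and these ligands act on receptors that raise cAMP. In melanocytes Mc1r carries the α-MSH signal to protein kinase A, Mitf and the enzymes of melanin synthesis, and agouti, an antagonist made in the skin, blocks it. Mrap is a small accessory protein that carries Mc2r, the ACTH receptor, to the cell surface, and it is best known from the adrenal cortex and from fat.

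The members were taken by gene symbol as Mc1r, Mc2r, Mc3r, Mc4r, Mc5r, Pomc (Pomc1 in the file), Mrap (1110025G12Rik in the file) and agouti (a in the file). They are 8 genes, with 1 probe each, of 15694 gene symbols and 33012 probes on the array. The rule names gene symbols, and the set was chosen by the normalized signals and differences between lines on these same arrays. They were measured in 4 cultured mouse melanoma lines, with 1 array per line. B16, called B16F1 in part of the labels, is the parental line from the C57Bl6 strain. Cells injected into the skin of the back gave metastases in lymph nodes, and B16-RI is the culture grown from these. B16-RI was then injected in turn, and its metastases gave B16-R2 (B16-RII in the labels) from lymph nodes and B16-R2L (B16-RIIL) from the lung. Where 4 values follow each other they are in passage order, with the parental line first and the lung line last. All lines were grown in medium with 20% fetal bovine serum for up to 10 passages, none is labelled as a clone, and the RNA was pooled from cells of 2 passage numbers. The deposited table also holds second arrays of the lines, which match no labelled sample and were not used here. With the 1 labelled array per line that was used, no test between lines was run, and every difference below is a description of these arrays.

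Detection required a flag no higher than 5000 and a signal-to-noise ratio, written S/N, no lower than 3, and between 13872 and 14855 probes were detected per array. Signals are the deposited normalized signals, which are the raw signals divided by 1 of 2 constants per array. Differences are in log2 units. The median difference from B16 over probes detected everywhere was 0.21, 0.41 and 0.22 log2 units in the 3 passaged lines. Probes that share a constant are called a probe set. The same median was 0.39, 0.41 and 0.46 in set 1, which holds Mc1r, and 0.07, 0.42 and -0.01 in set 2, which holds Mrap. As replicate arrays were not used, the disagreement between 2 probes of the same gene was taken as a scale of probe noise. Both probes share the RNA, the culture and the hybridization, so this scale leaves out the variation between cultures and between arrays, which was not measured here. Over 477 genes with 2 such probes, the differences of the 2 probes between B16-R2L and B16 lay a median of 0.41 log2 units apart, and 95% lay within 1.18. Pigment cell genes were expressed in every line, since 7 of the 8 melanocyte markers with a probe were detected on each array, the exception being Ednrb. At 2-fold, 0, 0 and 1 of the 8 were above B16 in the 3 passaged lines, where 4.65%, 7.40% and 7.12% of all genes were. None of the 8 was below, beside 4.06%, 3.22% and 3.55% of all genes.

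Of the 8 genes, 1, 2, 4 and 3 were detected in passage order. Mc1r was detected on every array and Mrap on the 3 passaged arrays. Mc3r, Mc4r and Mc5r were each detected on a single array, and Mc2r, Pomc and agouti on none. Among all probes 35.2% were detected on every array, 12.4% on exactly 1 array and 43.4% on no array.

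**Figure D1:**
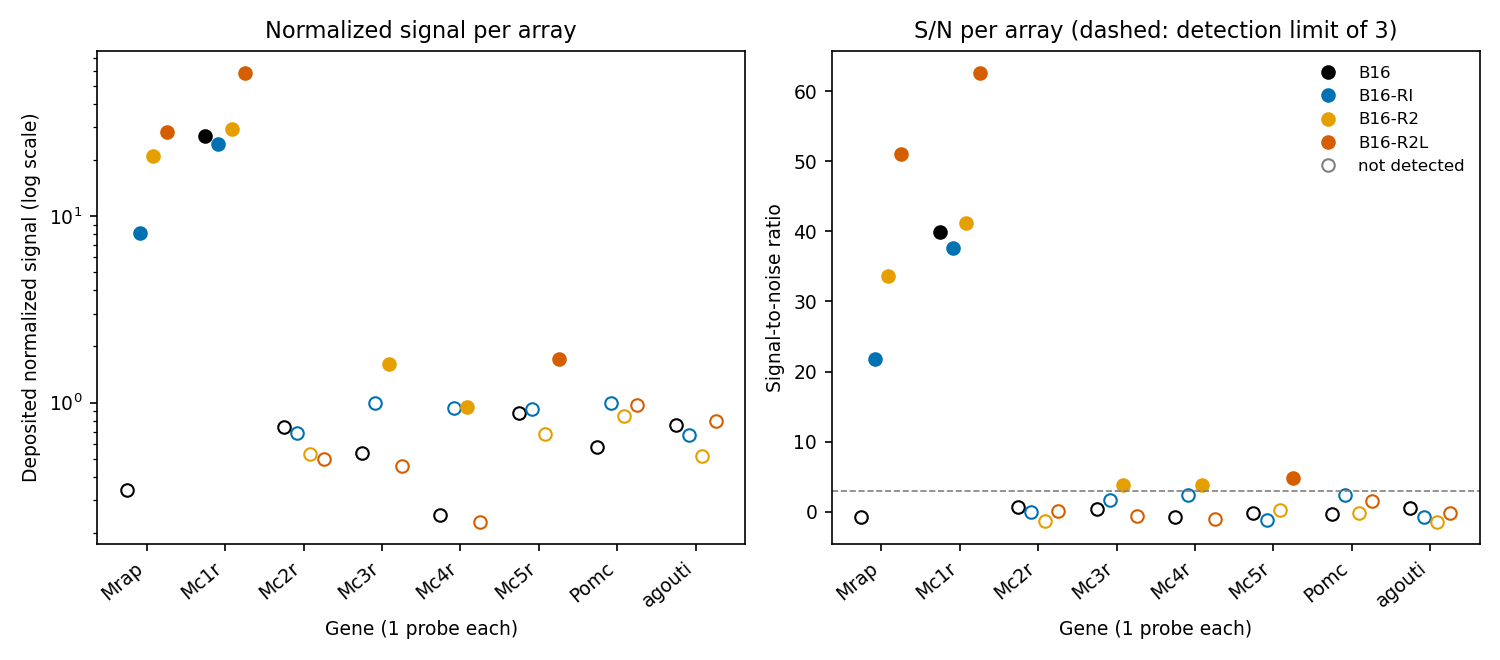
Deposited normalized signal (left, log axis) and signal-to-noise ratio (right) of the 8 genes on the 4 arrays, with filled points for detected probes and open points for probes not detected. Mrap was filled on the 3 passaged arrays, Mc1r on all 4, and the S/N of Mc3r, Mc4r and Mc5r passed 3 on 1 array each. Heights of different genes come from different probes and are not comparable.

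Mrap was the member that separated the parental line from the passaged lines. Its normalized signal was 0.34 in B16, then 8.08 in B16-RI, 20.84 in B16-R2 and finally 28.3 in B16-R2L. The S/N was -0.81, 21.83, 33.66 and 51.1 in passage order. The probe was thus not detected in the parental line and was far above the limit in each line recovered from a metastasis. Against its signal on B16, Mrap was higher by at least 23.8-fold, 61.3-fold and 83.2-fold in the 3 passaged lines, or 4.57, 5.94 and 6.38 log2 units. In bulk RNA, more cells with the transcript and more transcript per cell cannot be told apart. The bounds rest on the signal of 0.34, which is close to 0.31, the lowest signal detected on B16. Set against the 5th percentile of detected signals, 1.32, they were 2.61, 3.98 and 4.42 log2 units. Detection on all 3 passaged arrays without B16 was found for 1.40% of all probes.

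Among the passaged lines, where Mrap was measured on both sides, B16-R2 was 2.58-fold and B16-R2L 3.50-fold above B16-RI. These are 1.37 and 1.81 log2 units, and 95% of the disagreements between 2 probes of a gene lay within 0.90 and 1.06 in the same comparisons. The 2 lines of the second injection differed by 0.44 log2 units, B16-R2L being the brighter, against a median disagreement of 0.36. The difference between B16-R2 and B16-RI ranged from 0.95 to 1.37 over 5 normalizations and so did not always reach 2-fold. That between B16-R2L and B16-RI stayed between 1.71 and 1.86.

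Mrap stood apart from the genes beside it on chromosome 16. Sod1, Hunk and Cfap298, detected on every array, differed from B16 by between 0.07 and 0.73 log2 units over the 3 passaged lines. Olig2 differed from B16 by -0.44, -0.31 and -0.88 log2 units, and 4932438H23Rik was detected on no array. Tiam1, an exchange factor of Rac, had a signal of 2.07 on B16 and was not detected on the passaged arrays, with differences of at most -2.30, -1.52 and -2.45 log2 units. The 221 genes of chromosome 16 detected on every array had a median difference from B16 that was 0.08, 0.10 and 0.08 log2 units above that of all genes.

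**Figure D2:**
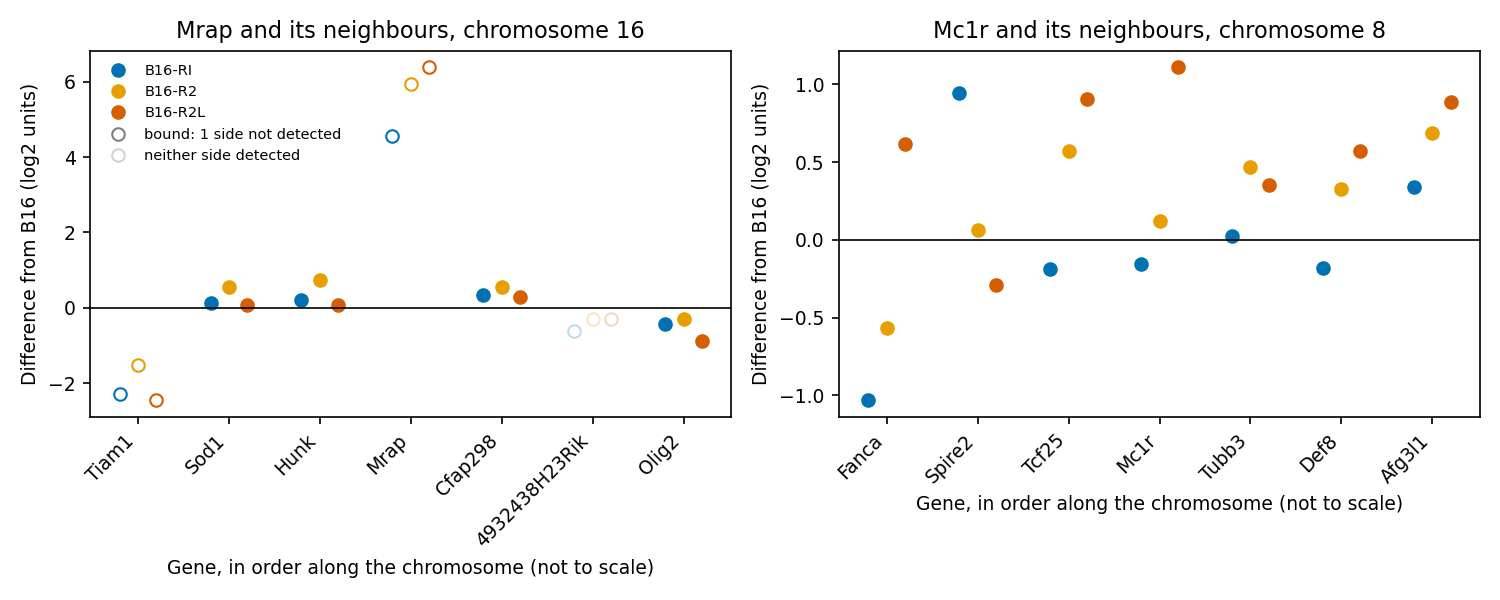
Difference from B16 in log2 units for Mrap and for Mc1r with the 3 nearest genes that have a probe on each side, in chromosome order and not to scale, with 1 colour per passaged line. Filled points were measured on both arrays, open points are bounds, and pale points were detected on neither array. Mrap lies at 4.57 to 6.38, away from its neighbours, while Mc1r at 1.11 in B16-R2L has neighbours between -0.29 and 0.91.

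The genes most like Mrap over the 3 passaged arrays were found by the Euclidean distance between centred log2 signals, among 262 other probes with a symbol and the same pattern of detection. They were A530095I07Rik at a distance of 0.06, Slc22a17 at 0.11, Tmem54 at 0.23, Fitm1 at 0.24 and Map4k1 at 0.27. Slc22a17, a receptor for lipocalin, had signals of 0.70, 3.78, 10.7 and 13.21 in passage order. Map4k1, a kinase of blood cells, had 2.11, 5.60, 11.14 and 16.78. After quantile normalization Slc22a17 ranked 2 and Map4k1 ranked 3, whereas the other genes ranked 11, 20 and 23.

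The receptor that Mrap serves in the adrenal cortex was not found beside it. Mc2r had signals of 0.74, 0.69, 0.53 and 0.50 in passage order, and its S/N did not exceed 0.74. Mrap was therefore detected in 3 lines in which Mc2r was not detected. Of 7 adrenal cortex markers with a probe, 5 were detected on no array, among them Star and Nr5a1, and none was detected on B16-RI or B16-R2L. The other 2, Cyp11a1 and Cyp21a1, were detected on B16 and on B16-R2. Their S/N on these arrays was 3.66 and 3.51 for Cyp11a1 and 7.32 and 4.15 for Cyp21a1. The summed signal of the 7 markers was 7.59, 8.73, 5.85 and 5.73 in passage order. Of 8 fat cell markers, 5 were detected on no array, Adipoq, Lep and Pparg included, and the summed signal was 10.24, 6.75, 7.30 and 6.63. Most of these probes were not detected, so the sums of both lists are largely background. Of the fat cell markers that were detected, Plin1, a lipid droplet protein, was found on every array and Fabp4 on B16 alone. Cebpa, a transcription factor of fat and other cells, was detected in the lung line alone, with signals of 0.66, 0.37, 0.51 and 1.33, at least 2.02-fold above B16. That bound rests on the B16 signal of 0.66, and 1.33 is close to 1.32, the 5th percentile of detected signals on B16.

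Markers of other cells were set beside Mrap in the same way. Of 7 lymphocyte markers, 3 were detected on every array and 3 on none, with summed signals of 63.62, 73.84, 91.34 and 65.4, and the highest sum was in B16-R2. Most of that sum came from 1 marker, and at 2-fold 1, 1 and 0 of the 7 were above B16 and 1, 1 and 1 below in the 3 passaged lines. Of 6 lung epithelium markers, 3 were detected on no array, and the sums were 7.12, 9.89, 7.14 and 7.46. Scgb1a1, a secretory protein of the airways, was detected in the lung line alone, with signals of 1.32, 1.28, 1.15 and 2.59, at least 1.96-fold above B16. Sftpb, a surfactant protein, was detected on B16 alone. The 6 fibroblast markers, 3 of them detected on no array, did have their highest sum in the lung line, as Mrap did, with 12.78, 19.08, 11.78 and 22.42. Most of that sum came from Col1a2, a collagen chain, whose signals were 6.32, 14.96, 7.40 and 16.66, while Pdgfra, Dcn and Fap were the markers not detected. Col1a1, the other chain of the same collagen, went the other way, with 3.50, 1.36, 2.22 and 2.41, and was not detected on B16-RI. Lum, the remaining marker, had 1.31, 0.69, 0.72 and 1.45 and was detected on B16-R2L alone, with an S/N of 3.58. Of 6 macrophage markers 4 were detected on no array, and none was 2-fold from B16 with detection on the brighter array. Of 6 endothelial markers 5 were detected on no array, and the other, Pecam1, an adhesion molecule of vessels and blood cells, had 0.52, 1.34, 2.44 and 1.02, with detection in B16-R2 and B16-R2L. The part of such cells in the Mrap signal was not tested.

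Mc1r, the α-MSH receptor of pigment cells, was expressed in every line and was brightest in the lung line. Its normalized signal was 26.98 in B16, then 24.27 in B16-RI, 29.29 in B16-R2 and finally 58.21 in B16-R2L. The S/N was 39.87, 37.59, 41.26 and 62.58 on the same arrays. The signals of the other 3 lines lay close together, with differences from B16 of -0.15 log2 units in B16-RI and 0.12 in B16-R2. In B16-R2L Mc1r was 2.16-fold above B16, 2.40-fold above B16-RI and 1.99-fold above B16-R2. In log2 units these are 1.11, 1.26 and 0.99, where 95% of the disagreements between 2 probes of a gene lay within 1.18, 1.06 and 1.07.

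The size of the Mc1r difference depended on the scale it was read against. Over the 5 normalizations it lay between 0.59 and 1.16 log2 units for B16-R2L against B16, the lowest value being with the probe sets centred separately, and it reached 2-fold in 2 of the 5. It lay between 1.14 and 1.38 against B16-RI and between 0.89 and 1.06 against B16-R2. The direction of the small difference between B16-R2 and B16 turned, from -0.31 to 0.27. Mc1r lies on chromosome 8, whose 402 genes detected on every array had a median difference between B16-R2L and B16 0.36 log2 units higher than the median of all genes. Relative to the chromosome 8 median, a scale added after the values were seen, Mc1r in B16-R2L was 0.48 log2 units above B16, 0.89 above B16-RI and 0.85 above B16-R2, none of which reaches 2-fold. In the comparison with B16, 13.4% of the chromosome 8 genes had a difference at or above that of Mc1r, against 4.29% of all genes. The part of chromosome 8 in the result was not tested. Of the nearest genes, Tcf25, Afg3l1, Fanca and Def8 were above B16 in B16-R2L by 0.91, 0.88, 0.62 and 0.57 log2 units, and Tubb3 by 0.35. Spire2 differed by -0.29 log2 units. Fanca exceeded Mc1r in B16-R2L against B16-RI, with 1.64 log2 units, and against B16-R2, with 1.18. The other neighbours lay below Mc1r in both comparisons, Tcf25 coming closest with 1.09 against B16-RI.

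**Figure D3:**
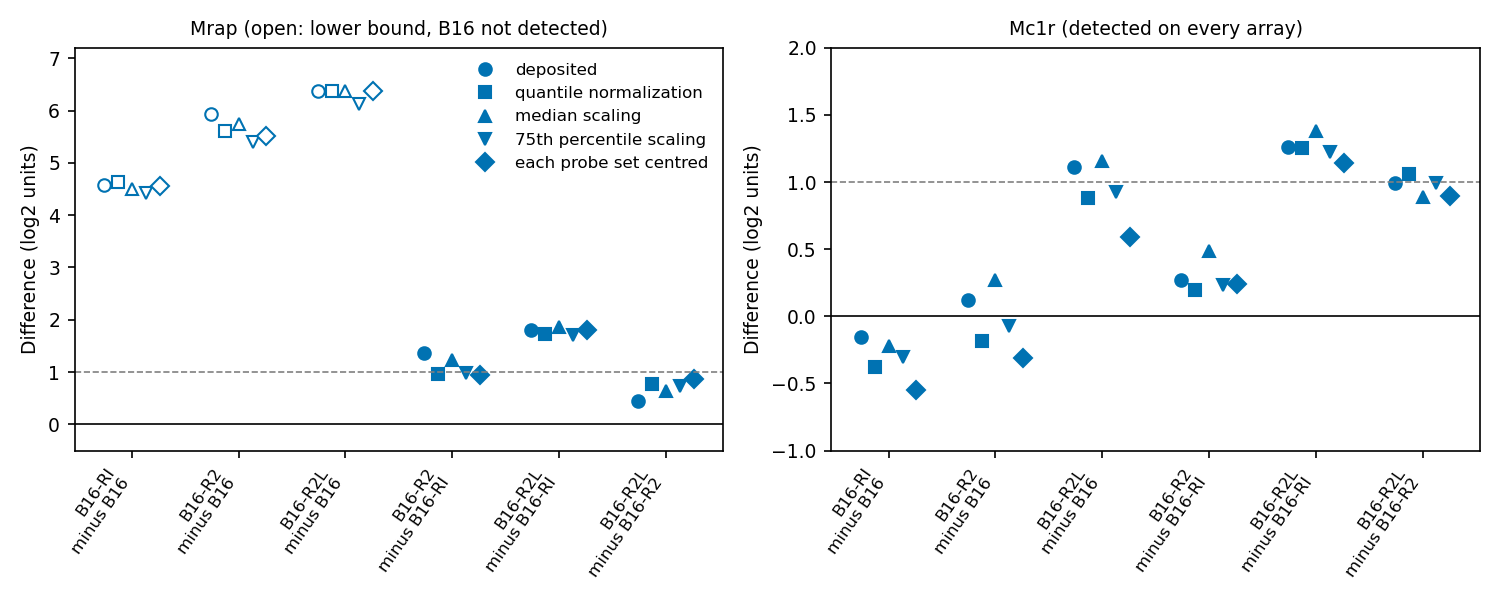
Log2 differences of Mrap (left) and Mc1r (right) in 6 comparisons between lines under 5 normalizations, with open symbols for lower bounds and a dashed line at 1 log2 unit. Mrap stayed at 4.42 or higher against B16 in each passaged line, and Mc1r in B16-R2L against B16 ranged from 0.59 to 1.16.

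The promoter of Mc1r is shown because Mc1r was the one receptor detected in every line, and because α-MSH signalling feeds into Mitf, a factor that binds E-boxes. RefSeq promoter windows, of 250 bases before and 50 after the gene start, matched Mc1r, Mc3r, Pomc and agouti. The 250 bases before the start of Mc1r lie at chr8:123406832-123407081 of GRCm38.p6, on the plus strand. In the sequence, the capitals mark both matches of the E-box CATGTG, 1 of them on the other strand as CACATG, which begin 62 and 51 bases before the start.

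Mc1r: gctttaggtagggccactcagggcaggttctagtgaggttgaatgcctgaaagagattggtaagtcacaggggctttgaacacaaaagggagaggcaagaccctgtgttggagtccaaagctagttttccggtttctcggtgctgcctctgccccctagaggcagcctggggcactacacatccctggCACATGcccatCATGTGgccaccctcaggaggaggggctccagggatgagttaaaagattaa

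The E-box was found at least once in 14.2% of 32851 promoter windows and at least 2 times in 2.08%. It had 0 matches in the windows of Mc3r, Pomc and agouti. The cAMP response element TGACGTCA, in 1.79% of windows, had 0 matches in the 4 windows. Its shorter core TGACG, which the full element also holds, was in 20.8% of windows and had 1 match, in that of Mc3r. The TATA box TATAAA, in 13.6% of windows, had 1 match, 25 bases before the start of Pomc. All motifs were searched on both strands.

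The receptors of the brain and of exocrine glands were at the limit of detection. Mc3r, a receptor of the hypothalamus, had signals of 0.54, 0.99, 1.61 and 0.46 in passage order, and was detected on B16-R2 with an S/N of 3.88. Mc4r, which restrains feeding, had signals of 0.25, 0.94, 0.95 and 0.23, and was detected on B16-R2 with an S/N of 3.88. On B16-RI the Mc4r signal was as high, but its S/N was 2.38. Mc5r, a receptor of sebaceous and other exocrine glands, had signals of 0.88, 0.92, 0.68 and 1.72, and was detected on B16-R2L with an S/N of 4.82. Each of these detections was thus on 1 array and under an S/N of 5. Probes detected on B16-R2 alone made up 2.94% of all probes and had a median S/N of 4.06, and those on B16-R2L alone 3.60% with a median of 3.99.

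Read as bounds, Mc3r and Mc4r were at least 2.98-fold and 3.06-fold above B16 in B16-R2, and Mc5r at least 1.95-fold above B16 in B16-R2L. In B16-R2L, Mc3r and Mc4r were lower than in B16-R2 by at least 3.50-fold and 2.97-fold. Against the 5th percentile of detected signals no rise of Mc4r over B16 remained, with -0.47 log2 units, and that of Mc3r was 0.29. On that floor the differences between B16-R2L and B16-R2 were -0.37 log2 units for Mc3r, 0.40 for Mc4r, which turned its direction, and 0.32 for Mc5r, which was 1.34 without it. At an S/N limit of 5 none of these receptors was detected on any array.

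Pomc and agouti, the ligand precursor and the antagonist, were not detected in any line. The Pomc signal was 0.58, 0.99, 0.85 and 0.97 in passage order, and its highest S/N was 2.37, on B16-RI. The agouti signal was 0.76, 0.67, 0.52 and 0.80 on the same arrays, with a highest S/N of 0.51. C57BL mice carry the nonagouti allele. Tbx19 and Crhr1, which mark the Pomc cells of the pituitary, were detected on no array. Of the 6 markers of that list, 1 was detected, the growth hormone Gh, on B16-R2 with an S/N of 5.74. Signals this low do not show that a transcript was absent, only that it was not detectable on these arrays.

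Counted by the rule of at least 2-fold with detection on the brighter array, 1 of the 8 genes was above B16 in B16-RI (Mrap), where 4.94% of all probes were. In B16-R2 there were 3 (Mrap, Mc3r and Mc4r), where 6.51% of all probes were above B16, and in B16-R2L there were 2 (Mrap and Mc1r), where 6.42% were. In each of the 3 lines 0 members were below B16, beside 4.51%, 3.76% and 4.23% of all probes. Mrap alone was above B16-RI in B16-R2, with 4.86% of all probes, and Mrap and Mc1r in B16-R2L, with 5.35%, while 0 members were below B16-RI in either, beside 3.27% and 4.07% of all probes. Between B16-R2L and B16-R2, Mc5r was above, with 3.82% of all probes, and Mc3r and Mc4r were below, with 4.70%. The genes were chosen with such values known, so the counts are given as a description only.

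Beyond the members, 69 genes of the ligand, receptor and cAMP pathway had a probe, and 53 of them were detected on at least 1 array. In the 3 passaged lines 3, 6 and 8 of them were above B16, and 4, 3 and 1 were below. With 1 probe per gene, 4.65%, 7.40% and 7.12% of all genes were above B16, and 4.06%, 3.22% and 3.55% were below. The median difference of the pathway genes was 0.14, 0.26 and 0.20 log2 units, against 0.21, 0.44 and 0.26 over all genes.

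**Figure D4:**
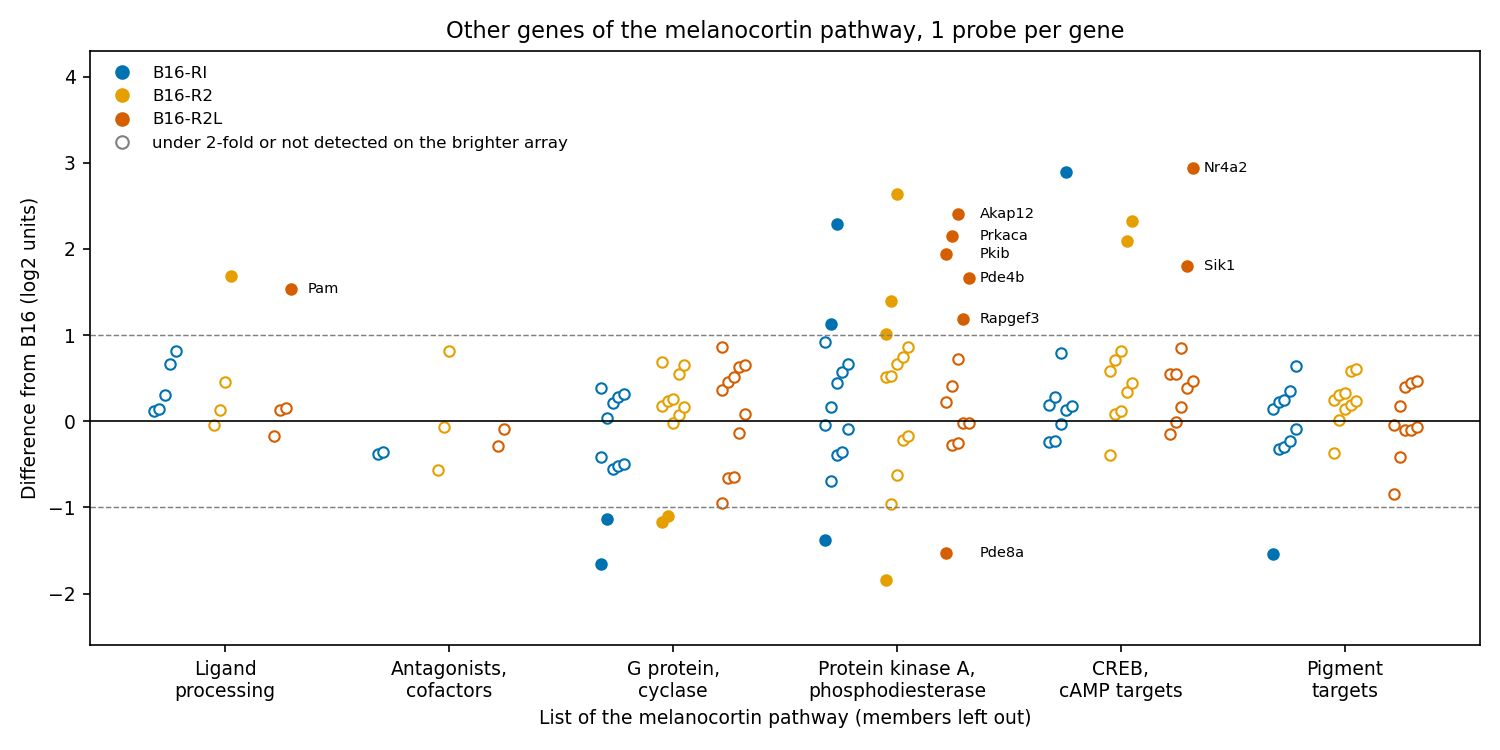
Difference from B16 in log2 units for the pathway genes other than the members, by list, with 1 point per gene that was detected on at least 1 of the 2 arrays and 1 colour per passaged line. Filled points were at least 2-fold from B16 and detected on the brighter array, and those of B16-R2L are named. In B16-R2L 8 genes were above B16 and 1, Pde8a, was below, while none of the 10 pigment target genes was with these deposited values, although Oca2 was below in 3 of 5 normalizations.

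Of the 8 genes of peptide processing, Pomc included, 4 were detected on every array, and of these Pam was the one at least 2-fold from B16. Pam, the enzyme that amidates α-MSH, had signals of 11.98, 21.17, 38.47 and 34.7 in passage order. Its fold over B16 was 3.21 in B16-R2 and 2.90 in the lung line, and it was at least 2 under each of the 5 normalizations in both lines. The carboxypeptidase Cpe had 769.8, 836.7, 840.5 and 859.9, and the convertase Pcsk1 was detected on no array. Pcsk2, the other convertase of Pomc, was detected on B16-RI alone. Among antagonists and cofactors, Agrp was detected on no array, and Mgrn1, the ubiquitin ligase that acts downstream of agouti, differed from B16 by -0.36, -0.07 and -0.28 log2 units.

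Downstream of the receptor, Gnas, the stimulatory G protein, had signals of 17.65, 21.43, 27.69 and 24.15 in passage order. The adenylate cyclase Adcy6 went the other way, with 14.06, 6.39, 6.25 and 7.31. It differed from B16 by -1.14, -1.17 and -0.94 log2 units, the last of which reached 2-fold under 2 of the 5 normalizations. Of the 17 genes of G proteins, cyclases and desensitisation none was above B16 in any line, and Adcy9 was below it in B16-RI and Grk3, a receptor kinase, in B16-R2.

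Of the 20 genes of protein kinase A and phosphodiesterases, the longest of the lists, 2, 3 and 5 were above B16 in the 3 passaged lines, where 4.65%, 7.40% and 7.12% of all genes were. Prkaca, the catalytic subunit of protein kinase A, had signals of 1.73, 3.28, 4.54 and 7.71 in passage order and was not detected on B16. In the lung line it was at least 4.46-fold higher, and it lies on chromosome 8. Akap12, which anchors the kinase, was not detected on B16 and exceeded it in the 3 passaged lines by at least 4.89-fold, 6.23-fold and 5.30-fold. These bounds rest on a B16 signal of 0.70 and would be smaller against 1.32, the 5th percentile of detected signals on B16. Rapgef3, the cAMP sensor Epac1, had 9.75, 13.3, 19.7 and 22.13, but its rise in B16-R2 reached 2-fold only with the deposited values among the 5 normalizations, and that in B16-R2L in 3 of 5. The phosphodiesterase Pde4b rose over B16 by at least 2.19-fold in B16-RI, which 3 of the 5 normalizations kept, and 3.16-fold in B16-R2L. Pde8a, a related enzyme, was detected on B16 alone. The kinase inhibitor Pkib was 3.84-fold above B16 in B16-R2L, and Pkig, of the same family, was lower by at least 3.59-fold in B16-R2.

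Of 11 CREB family members and cAMP targets, Nr4a2, a nuclear receptor induced by cAMP, was the one above B16 in each line. Its signal was 0.84, 6.26, 4.20 and 6.43 in passage order, not detected on B16, and the rise was at least 2.90, 2.32 and 2.94 log2 units. Set against 1.32, the 5th percentile of detected signals on B16, the bounds of Nr4a2 would be smaller. Its relatives Nr4a1 and Nr4a3 were detected on every array and were within 0.58 log2 units of B16. Sik1, a kinase that restrains CREB coactivators, was detected on B16-R2L alone and Per1, a clock gene, on B16-R2 alone.

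The pigment genes that Mc1r signalling feeds were detected on every array, 10 of 10, and with the deposited values none of these 10 was 2-fold from B16 in the lung line. Tyr, the tyrosinase, had signals of 10.33, 8.80, 12.16 and 10.06 in passage order, and Mitf had 6.37, 5.20, 6.45 and 5.96. Relative to B16, Mitf and Tyr differed in B16-R2L by -0.10 and -0.04 log2 units, where Mc1r differed by 1.11. Gpr143, Pmel, Dct and Tyrp1 were above B16 there by 0.47, 0.44, 0.40 and 0.17 log2 units, each under 2-fold, and the other 6 genes of the list were below it. Pmel, Dct and Tyrp1 are in probe set 1, with Mc1r and Mitf, and lay under the median difference of that set, 0.46. Gpr143 and Tyr are in set 2, whose median was -0.01. Oca2, a melanosomal transport protein, was the 1 gene past 2-fold with the deposited values, with -1.54 log2 units in B16-RI. In B16-R2L it differed by -0.84 log2 units, and it passed 2-fold below B16 in 3 of the 5 normalizations, over which it ranged from -1.36 to -0.79.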

How the data were processed

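RNA of 4 lines was measured on 1-colour chemiluminescent arrays of Applied Biosystems. The authors deposited raw and normalized signal intensity for 33012 probes, with the S/N and the flag, which are scores of the analyzer. The paper names quantile normalization. The deposited normalized intensity equals the raw one divided by 2 constants per array, and quantile normalization was run as an alternative. The file also held 20 columns of second arrays with 10 ratios, which match no labelled sample, and 14 columns derived from the arrays analysed. None of these was used. Log2 was taken without a pseudocount. A signal not detected was set to the higher of itself and the lowest detected signal of its array. Lists used 1 probe per gene, the brightest on average, and named genes were those called against B16, Mitf, Tyr and Gnas, the 5 genes most like Mrap and the 3 nearest genes on each side of it. Cpe, Pcsk1, Pcsk2, Agrp, Mgrn1, Nr4a1, Nr4a3, Gpr143, Pmel, Dct, Tyrp1 and the markers were named outside this rule, after their values were seen. Other normalizations, detection filters, floors and fold limits were tried as alternatives. Genes were named through RefSeq (GRCm38.p6), which matched 16186 of 17302 probes with a symbol. The file names no build. The members and lists were chosen with earlier results of these data known. Neighbours of Mc1r were added after its values were seen. Protein sequences were not analysed here. The precision of every value is limited by the use of a single array per line. Counting rules were tested on simulated data. Python 3.11.15, numpy 2.4.6, pandas 2.3.3 and matplotlib 3.10.9 were used.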

Additional observations from a re-analysis of the deposited data

How the results depend on the processing

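Of 282 alternative values for 39 results, 241 stayed within 1.5 times the reported value, 39 moved farther and 2 turned a difference that had been called. Part of the 241 could not move. Differences of Mc1r, and of Mrap between passaged lines, were measured on both sides with S/N above 5. For them the detection filters and the floor return the same number, so these values say nothing about stability. The sign also turned in 10 values of differences that had not been called, among them Mc1r in B16-R2 against B16, which was -0.18 with quantile normalization, -0.07 with 75th percentile scaling, -0.31 with each probe set centred and -0.40 relative to chromosome 8, and Mc4r in B16-R2 against B16-RI, which reached -0.77. No paired analysis was possible because 1 labelled array per line was used, and for the same reason leaving out a replicate could not be tried. Signal over background limits every member but Mc1r, since Mrap was not detected on B16 and its differences from B16 are bounds.

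With the floor at the 5th percentile of detected signals, Mrap was higher than in B16 by 2.61, 3.98 and 4.42 log2 units in the 3 passaged lines. Mc4r then reversed, to -0.47 for B16-R2 against B16 and 0.40 for B16-R2L against B16-R2, because its detected signal lay below that floor. For genes other than the members this floor was not tried, and their bounds that rest on signals below it would be smaller. Relative to chromosome 8 genes, chosen after the values were seen, Mc1r was 0.48 above B16 in B16-R2L.

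Counts of members are small and moved by 1 or 2. Shares of all probes and genes were counted at 2-fold with the deposited values only. The counts under other settings, for members and other pathway genes, have no such share beside them and are a description only. With quantile normalization, 0 members were above in B16-R2 against B16-RI and 2 in B16-R2L against B16-R2. With 75th percentile scaling and with each probe set centred, 1 was above B16 in the lung line and 0 were above B16-RI in B16-R2. With S/N at least 5, 1 was above B16 in B16-R2, and 0 were above and 0 below in B16-R2L against B16-R2. With no detection filter, 2 were above B16 in B16-RI and 2 below in B16-R2L against B16-RI. At 1.5-fold, 2 were above in B16-R2 against B16-RI and 2 in B16-R2L against B16-R2. At 4-fold, 1 was above B16 in B16-R2, 1 was in B16-R2L, and 0 were called between passaged lines.

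Of the other pathway genes, 1 was above B16 in B16-RI with S/N at least 5 and 5 with no detection filter. Below B16 in B16-R2 were 5 with each probe set centred, 1 with S/N at least 5 and 5 with no detection filter. Below B16 in B16-R2L were 3 with quantile normalization, 3 with 75th percentile scaling, 2 with each probe set centred, 0 with S/N at least 5 and 3 with no detection filter.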
